A study of Bos taurus with 28 samples.

Results

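The comparison described here set bovine liver taken during progesterone treatment against bovine liver taken without it, over all 28 arrays of the series. It held 14 arrays with progesterone and 14 arrays without, and the presence of estradiol was a second, additive term of the model. All animals were dry, ovariectomized Holstein cows, so the controls also lacked ovarian hormones of their own. The groups were CO (no hormone), E2T (estradiol from an ear implant), P4T (progesterone from a vaginal device) and E2P4T (both devices), with 7 arrays each and a treatment of 14 days. The source labels of the P4T and E2P4T arrays call the progesterone intradermal, whereas the treatment protocol names the vaginal device. Each array was hybridised with mRNA from a liver biopsy on an Affymetrix bovine expression array. According to the study's methods the same cows received the treatments in turn in a Latin square. The labels used here name neither the cow nor the period, so that arrays were treated as independent and p-values measure only the spread between arrays.

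Progesterone is the steroid of the corpus luteum and of pregnancy. It acts through a nuclear receptor, PGR, which needs a chaperone complex to bind hormone, and also through membrane-associated binders such as PGRMC1 and the PAQR family. At higher levels it can bind the glucocorticoid receptor and activate xenobiotic sensing receptors, and the liver is the main site where it is reduced, hydroxylated and conjugated. In cattle, feed intake, liver blood flow and the rate of hepatic clearance set how much of the hormone circulates.

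A pair of arrays stood apart from the rest before any comparison, and both belonged to the progesterone side. The array labelled E2P4T replicate 5 did not carry the defining transcripts of hepatocytes at the level of the other arrays. Its mean log2 signal over 19 hepatocyte markers was 10.05, against 15.59 to 16.20 on the other 27 arrays. Albumin (ALB) read 12.06 there and 16.57 to 18.16 elsewhere, and apolipoprotein B (APOB) read 5.00 there and 14.93 to 16.11 elsewhere. Its mean over 12 measured markers of the kidney nephron, of 22 listed, was 11.52, against 5.16 to 7.92 on the other 27 arrays. The adhesion protein of kidney tubules CDH16 read 14.42 on it (3.95 to 8.75 elsewhere), the sodium pump subunit FXYD2 15.92 (4.30 to 8.98 elsewhere) and the inositol-degrading enzyme MIOX 13.17 (4.49 to 9.18 elsewhere). Another nephron marker, SLC12A1, read 6.67 on it, within the 2 to 8.25 of the other 27 arrays. The marker means and the values of ALB, APOB, CDH16, FXYD2 and MIOX go against the liver label of that array. The array labelled P4T replicate 4 kept its hepatocyte markers, but its hybridisation spikes averaged 17.49 in log2 signal and its median signal was 439.4, against spikes of 13.18 to 16.46 and median signals of 178.2 to 322.2 on the 26 arrays other than these 2. The differences with progesterone are therefore given for 28 arrays and for the 26 arrays without them, of which 12 had progesterone. Among those 26 the highest median signals, 322.2, 314.4 and 298.8, were on CO replicate 3, CO replicate 7 and E2T replicate 3, all without progesterone.

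**Figure D1:**
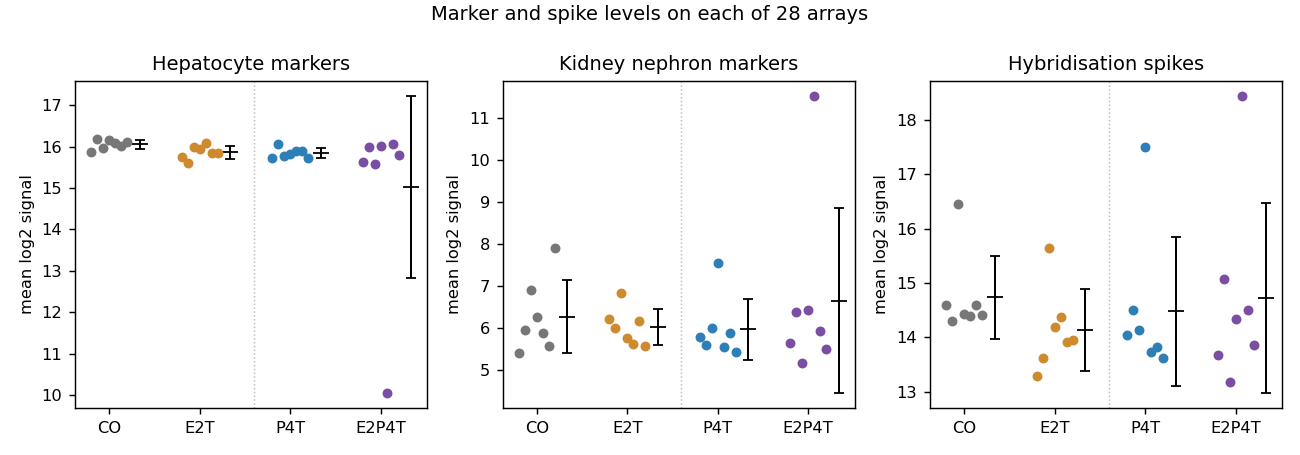
Mean log2 signal of hepatocyte markers, kidney nephron markers and hybridisation spikes on each array, by group (CO, E2T, P4T and E2P4T, 7 arrays each), with the group mean and SD beside the points. The array E2P4T replicate 5 lies at 10.05 for hepatocyte markers and 11.52 for nephron markers, and P4T replicate 4 and E2P4T replicate 5 have the highest spikes.

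No transcript passed the threshold for progesterone. Of 24016 probe sets tested with limma and Benjamini-Hochberg adjustment, 0 (0%) had an adjusted p under 0.05 with 28 arrays, and 0 (0%) with 26 arrays. The lowest adjusted p was 0.9999 with 28 arrays and 0.314 with 26. At an unadjusted p under 0.05 the 28 arrays gave 499 probe sets (2.08%), 248 higher (1.03%) and 251 lower (1.05%) with progesterone. Centring each array on its median changed this split to 224 higher and 363 lower. The 26 arrays gave 1148 probe sets (4.78%), with 245 higher (1.02%) and 903 lower (3.76%). Both shares were below the 5% that evenly spread p-values would give. A fit of the 26 arrays with replicate number as a term, added after the data were seen, gave 352 higher and 1090 lower. Together these were above that 5%, and 0 had an adjusted p under 0.05 in limma.

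The surplus of lower probe sets with 26 arrays lay among genes of low signal. With 1 probe set per symbol, 9155 genes were measured. At an unadjusted p under 0.05 the 28 arrays gave 142 of them (1.55%), 69 higher (0.754%) and 73 lower (0.797%), and the 26 arrays gave 371 (4.05%), 107 higher (1.17%) and 264 lower (2.88%). With 26 arrays, 30 of the 4577 genes below the median signal were higher (0.655%) and 215 lower (4.7%), whereas 77 of the 4578 genes at or above it were higher (1.68%) and 49 lower (1.07%). With 28 arrays the numbers below the median signal were 57 (1.25%) and 58 (1.27%), and those at or above it 12 (0.262%) and 15 (0.328%). The median signal of the 26 arrays ran from 178.2 to 243.7 with progesterone and from 183 to 322.2 without. Quantile normalization of the same 26 arrays, which makes these distributions equal, gave 444 probe sets higher and 510 lower. Without CO replicate 3 and E2T replicate 3 as well as the first pair, there were 222 higher and 538 lower.

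The difference with progesterone in the absence of estradiol (P4T minus CO) and in its presence (E2P4T minus E2T) rests on separate arrays. By the study's methods these arrays came from the same cows. With 28 arrays 4209 of 9155 genes (46.0%) had the same sign in both, and across genes, which are not independent, the correlation was -0.11. With 26 arrays 4698 genes (51.3%) had the same sign and the correlation was 0.01. Among genes at or above the median signal, 53.5% had the same sign with 26 arrays and the correlation was 0.05. An interaction of progesterone with estradiol was called for 0 probe sets (0%), and 872 (3.63%) with 28 arrays or 1105 (4.6%) with 26 had an unadjusted p under 0.05 for it in limma.

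Since no gene was called, the genes named next are the 10 of lowest p in each direction among genes at or above the median signal. They were also required to have the same sign in P4T minus CO, in E2P4T minus E2T and with 26 arrays, so that their agreement in sign is a property of the choice. The 26 arrays are part of the 28 used to choose them. Their p-values and intervals are therefore no independent test in either set. All have an adjusted p of 0.9999 with 28 arrays and of at least 0.95 with 26.

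OAT, the mitochondrial ornithine aminotransferase that links ornithine to glutamate and proline, had the largest difference among the 10 higher genes. Its log2 signal without progesterone ran from 11.20 through a median of 12.40 to 12.95. With progesterone it ran from 11.74 through 13.21 to 15.36, the highest value being E2P4T replicate 5. Thus 12 of 14 arrays with progesterone were above the median without it, although the ranges overlapped. The estradiol-adjusted difference was 0.98 on the log2 scale (SE 0.28, 95% interval 0.40 to 1.55, unadjusted p = 0.0014 in limma), a ratio of 1.97. With 26 arrays it was 0.90 (SE 0.24, 95% interval 0.41 to 1.38, unadjusted p = 6.4e-04 in limma), a ratio of 1.86. Both estradiol levels gave a value of the same sign, 1.03 for P4T minus CO and 0.76 for E2P4T minus E2T (0.85 and 1.099 with 28 arrays).

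MYLIP, the ubiquitin ligase that sends the low density lipoprotein receptor to degradation, read 8.86, 9.40 and 9.84 without progesterone (lowest, median and highest) and 9.17, 9.79 and 10.48 with it. The values with progesterone were above the median without it on 13 of 14 arrays. Its log2 difference was 0.37 (SE 0.13) with 28 and 0.37 (SE 0.13) with 26 arrays, a ratio of 1.30. A second probe set named MYLIP, of mean log2 signal 5.55, gave 0.10 (SE 0.54) with 28 and -0.17 (SE 0.53) with 26 arrays, too wide an error to set it apart from the first. CCDC8, a member of the growth-related complex with CUL7 and OBSL1, ran from 8.28 to 9.86 without and from 8.89 to 11.64 with progesterone, again highest on E2P4T replicate 5. The log2 difference of CCDC8 was 0.57 (SE 0.22) with 28 arrays and 0.45 (SE 0.18) with 26.

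The other 7 higher genes had differences of 0.27 to 0.44 with 28 arrays, and each range overlapped that of the arrays without progesterone. GPN1, a GTPase used for nuclear import of RNA polymerase II, had a log2 difference of 0.44 (SE 0.20), which became 0.25 (SE 0.16) with 26 arrays. TEX9 had 0.44 (SE 0.17) and 0.37 (SE 0.17), and NIPSNAP3A had 0.34 (SE 0.15) and 0.34 (SE 0.16). The polarity scaffold PALS1 (0.27 and 0.24), the Golgi lipid kinase PI4KB (0.29 and 0.18), the chromatin-associated PHF6 (0.31 and 0.21) and LOC613444 (0.30 and 0.23) completed the set. Second probe sets had the opposite sign for PALS1 (-0.12, SE 0.30, and -0.12, SE 0.29), for 1 of 2 of PHF6 (-0.68, SE 0.62, and -1.102, SE 0.60) and for 1 of 2 of GPN1 (-0.35, SE 0.62, and -0.19, SE 0.63). The remaining ones had 0.10 and 0.03 for PHF6 and 0.24 and 0.11 for GPN1, and those of LOC613444 had 0.27 and 0.50, and 0.13 and -0.07. Of the 10 higher genes, 5 had an unadjusted p under 0.05 in limma with 26 arrays, which are part of the 28 used to choose them: OAT, MYLIP, CCDC8, TEX9 and NIPSNAP3A.

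Among the 10 lower genes, TXNDC11, a member of the thioredoxin family in the endoplasmic reticulum, had the lowest p. It read 10.74, 11.07 and 11.82 without progesterone and 10.17, 10.83 and 11.22 with it. Of the arrays with progesterone 11 lay below the median without it, 6 of P4T and 5 of E2P4T. Its log2 difference was -0.41 (SE 0.13) with 28 arrays and -0.33 (SE 0.12) with 26, where it was -0.53 for P4T minus CO and -0.12 for E2P4T minus E2T (-0.59 and -0.23 with 28 arrays).

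PSMC1, an ATPase subunit at the base of the proteasome cap, read 11.57, 11.94 and 12.57 without progesterone and 11.23, 11.65 and 12.10 with it. On 13 of 14 arrays with progesterone it was below the median without. PSMC1 thus had a log2 difference of -0.30 (SE 0.12) with 28 and -0.25 (SE 0.11) with 26 arrays, a ratio of 1.23 and 1.19. GANAB, the catalytic subunit of the glucosidase that trims new glycoproteins, was below the median without progesterone on 14 of 14 arrays, with a log2 difference of -0.31 (SE 0.14). With 26 arrays the value of GANAB was -0.26 (SE 0.13), made up of 0.02 for P4T minus CO and -0.53 for E2P4T minus E2T (-0.02 and -0.61 with 28 arrays). A second GANAB probe set gave 0.06 (SE 0.14) with 28 arrays and -0.01 (SE 0.13) with 26.

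The remaining lower genes had smaller or less certain differences. STARD7 and STARD10, which carry phospholipids between membranes, had log2 differences of -0.32 (SE 0.14) and -0.40 (SE 0.18), and -0.28 (SE 0.14) and -0.27 (SE 0.15) with 26 arrays. PLPP5, a phospholipid phosphatase, had -0.27 (SE 0.11) and -0.24 (SE 0.11), and the lipid droplet coat protein PLIN3 had -0.33 (SE 0.15) and -0.25 (SE 0.14). QTRT1, which places queuine in transfer RNA, had -0.52 (SE 0.24) and -0.39 (SE 0.18), and a second QTRT1 probe set had 0.11 (SE 0.29) and -0.07 (SE 0.28). The other probe sets of STARD10 (-0.54, SE 0.36, and -0.09, SE 0.25) and PLPP5 (-0.30, SE 0.53, and -0.51, SE 0.52) had the sign of the first.

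The matrix protein tenascin C (TNC) and LBP, the acute phase protein that binds bacterial lipopolysaccharide, had larger differences with 28 arrays than with 26. TNC read 4.43 on E2P4T replicate 5, 5.96 on P4T replicate 4 and 8.55 to 10.79 on the other 12 arrays with progesterone, and its log2 difference went from -1.05 (SE 0.46) to -0.40 (SE 0.24). A second TNC probe set, of mean log2 signal 3.82, gave -0.44 (SE 0.47) and -0.85 (SE 0.42). LBP read 9.31 on E2P4T replicate 5 against 12.14 to 14.71 on those 12, and its difference went from -0.78 (SE 0.36) to -0.43 (SE 0.30). With 26 arrays TXNDC11, PSMC1, PLPP5, STARD7 and QTRT1 had an unadjusted p under 0.05 in limma, and the other 5 lower genes did not.

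**Figure D2:**
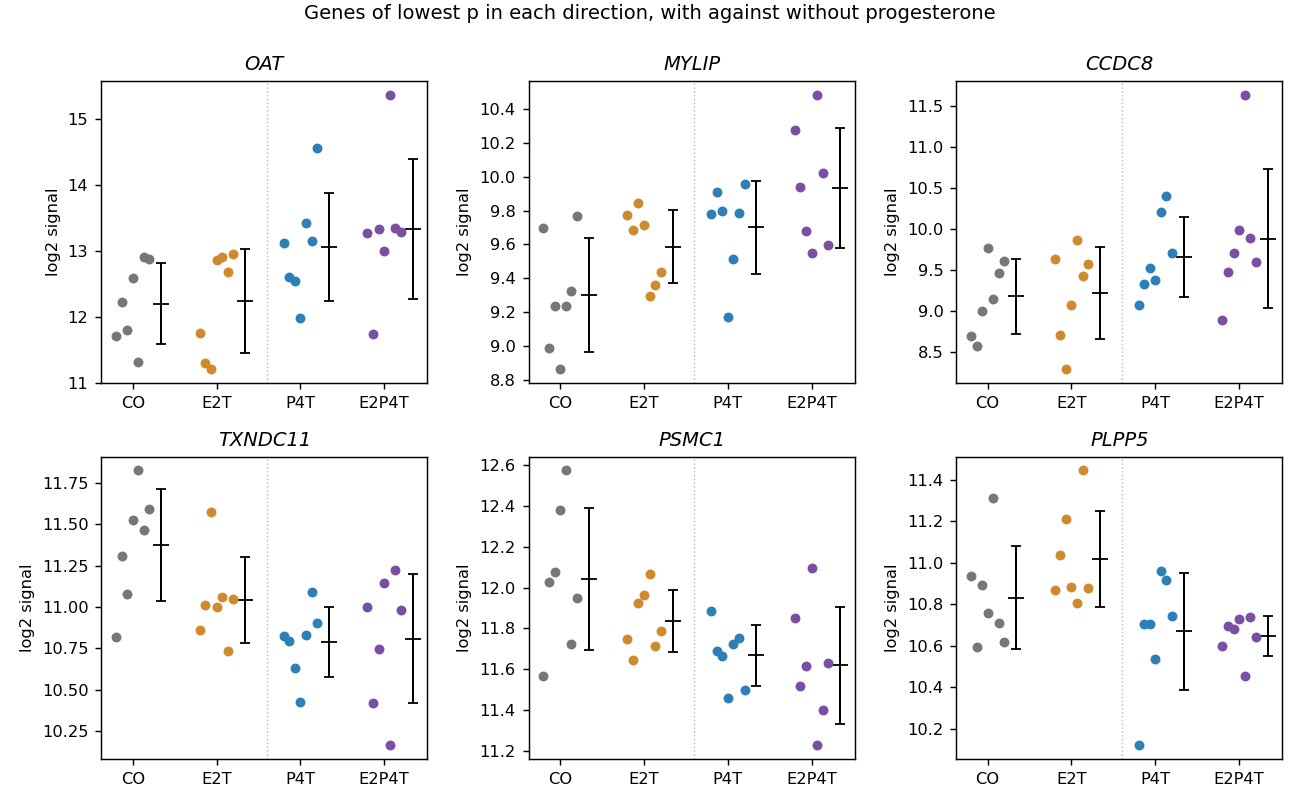
Log2 signal on each array, by group, of the 3 higher and 3 lower genes of lowest p, with the group mean and SD beside the points; the dotted line parts groups without progesterone (left) from groups with it (right). The groups overlap for each gene, and OAT has its highest value, 15.36, on E2P4T replicate 5.

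**Figure D3:**
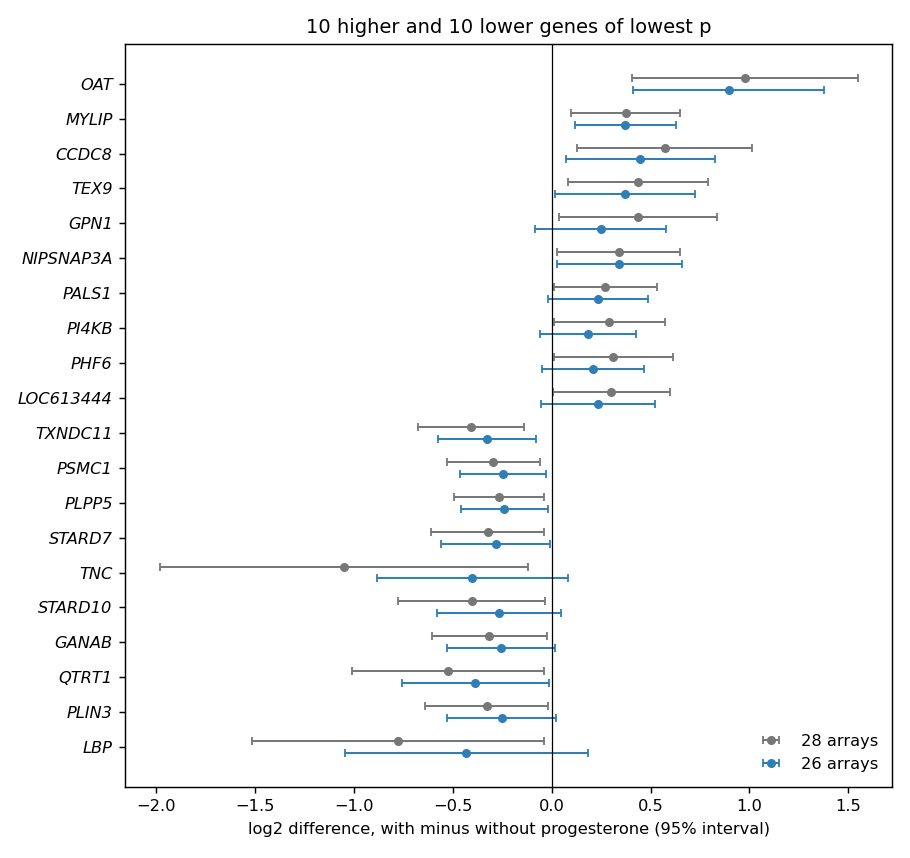
Log2 difference of the 10 higher and 10 lower genes, with minus without progesterone, with 95% intervals, for 28 arrays (grey) and 26 arrays (blue). The genes were chosen by their p on the 28 arrays, which include the 26. With 26 arrays the interval lay clear of 0 for 5 higher and 5 lower genes, and OAT and MYLIP had nearly the same value as with 28.

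Of 19 genes listed as progesterone receptors, binders and their chaperones, 11 had a probe set named for them alone, and the median difference over them was 0.02 with 28 and 0.07 with 26 arrays, beside 0.00 and -0.02 over all genes. None had an adjusted p under 0.05, and 0 of 11 with 28 arrays (1.55% of all genes) or 2 of 11 with 26 (4.05% of all genes) had an unadjusted p under 0.05 in limma. PGR, the nuclear receptor itself, at a low mean log2 signal of 6.50, read 4.27, 6.62 and 8.07 without progesterone and 4.33, 6.19 and 8.99 with it. Its highest value, 8.99, was on P4T replicate 4, and the next, 8.81, on E2P4T replicate 5. Hence the log2 difference was -0.36 (SE 0.45) with 28 arrays but -0.79 (SE 0.38, unadjusted p = 0.049 in limma) with 26, being -1.35 for P4T minus CO and -0.22 for E2P4T minus E2T (-0.90 and 0.19 with 28 arrays).

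PGRMC1, the heme-binding membrane component, scattered widely in CO (SD 0.90), and in P4T and E2P4T its lowest values were on the arrays that stood apart. Without those 2 arrays its SD went from 0.79 to 0.42 in P4T and from 1.20 to 0.50 in E2P4T. PGRMC1 ran from 12.14 to 14.85 without progesterone and from 11.03 to 14.46 with it, and 7 arrays with progesterone lay above and 7 below the median without it. The log2 difference was -0.10 (SE 0.30) with 28 arrays and 0.24 (SE 0.22, 95% interval -0.21 to 0.69) with 26, so its direction depended on those 2 arrays. A second PGRMC1 probe set gave -0.25 (SE 0.29) and -0.12 (SE 0.23). The related secreted protein NENF had 0.07 (SE 0.19) and 0.01 (SE 0.16), and SERBP1, a partner of PGRMC1, had -0.07 (SE 0.20) and 0.02 (SE 0.19). PAQR6, a membrane progestin receptor, had 0.44 (SE 0.34) and 0.25 (SE 0.33), and a second PAQR6 probe set had 0.11 (SE 0.29) and -0.07 (SE 0.28).

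NR3C1, the glucocorticoid receptor, which also binds progesterone, read 9.63, 10.30 and 10.68 without progesterone and 9.91, 10.51 and 10.93 with it. It was above the median without progesterone on 11 of 14 arrays with it. The log2 difference was 0.25 (SE 0.14) with 28 arrays and 0.27 (SE 0.13, 95% interval 0.00 to 0.54, unadjusted p = 0.047 in limma) with 26. Another NR3C1 probe set, of mean log2 signal 3.79, gave -0.79 (SE 0.71) with 28 and -1.37 (SE 0.66) with 26 arrays, a value of the opposite sign. NR1I3, the xenobiotic sensor CAR, had 0.48 (SE 0.33) and 0.31 (SE 0.31).

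The chaperones of the steroid receptors, each by its probe set of highest mean, had small differences, except FKBP5, whose error was the widest. HSP90AA1 had -0.11 (SE 0.20) with 28 and 0.07 (SE 0.15) with 26 arrays, FKBP4 0.02 (SE 0.17) and -0.05 (SE 0.17), and PTGES3 -0.04 (SE 0.14) and 0.05 (SE 0.10). With 26 arrays the 95% interval of PTGES3 ran from -0.15 to 0.25 and that of HSP90AA1 from -0.24 to 0.38. A second HSP90AA1 probe set, of mean log2 signal 9.15, gave 0.36 (SE 0.26) with 28 and 0.27 (SE 0.27) with 26 arrays. By level of estradiol this probe set had 0.87 for P4T minus CO and -0.32 for E2P4T minus E2T with 26 arrays (0.88 and -0.15 with 28 arrays). FKBP5, an immunophilin induced by glucocorticoids, had 0.76 (SE 0.55) and 0.55 (SE 0.55), with signals from 1.20 to 7.43.

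**Figure D4:**
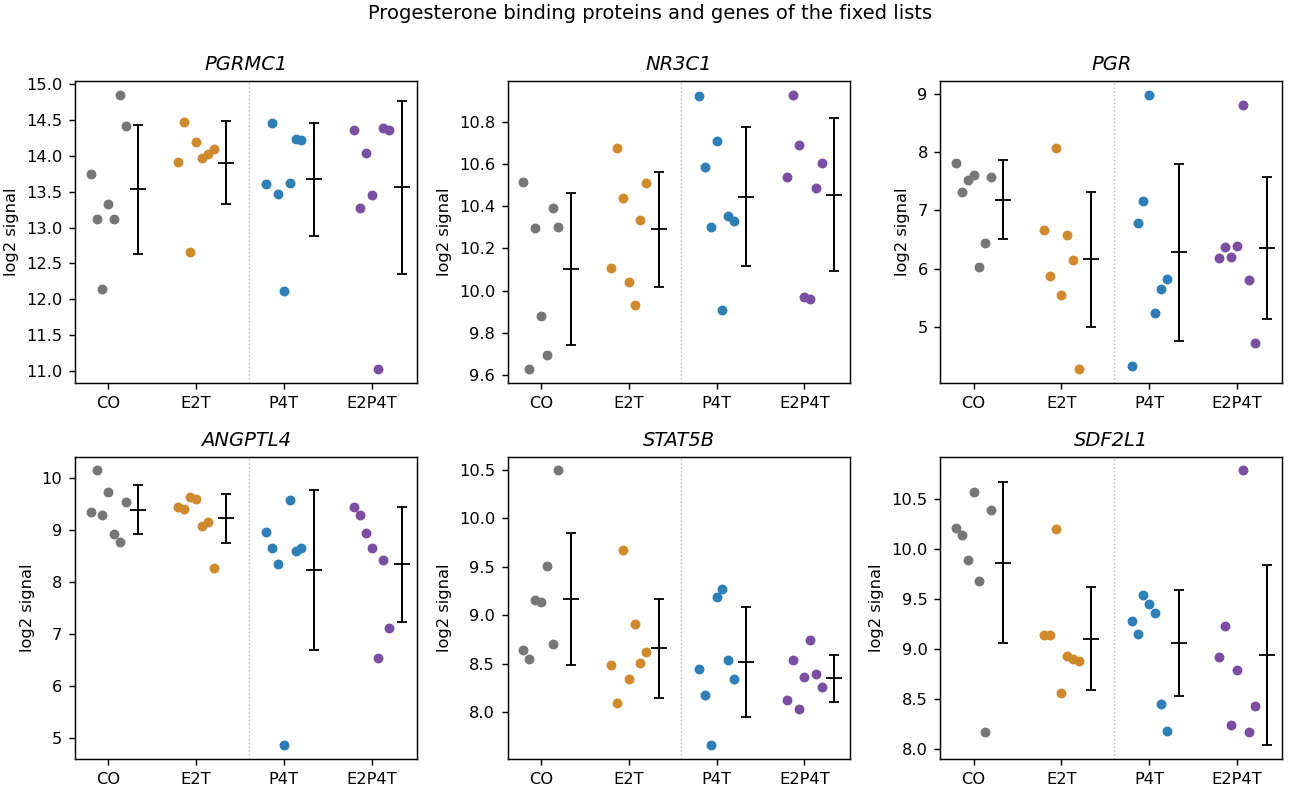
Log2 signal on each array, by group, of the progesterone binding proteins PGRMC1, NR3C1 and PGR and of ANGPTL4, STAT5B and SDF2L1, with the group mean and SD beside the points; the dotted line parts groups without and with progesterone. The highest PGR signals with progesterone, 8.99 and 8.81, are on P4T replicate 4 and E2P4T replicate 5, and the lowest ANGPTL4 signal, 4.87, is on P4T replicate 4.

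Liver pathways were followed through 22 lists of genes. No member of any list had an adjusted p under 0.05 with 28 or with 26 arrays. The members named in the paragraphs that follow are those of lowest p in each list with 28 arrays. They were picked by p, and the 26 arrays are part of the 28. Their unadjusted p-values are therefore no independent test in either set. The counts of higher and lower members stand beside those over all genes, 4578 higher and 4577 lower with 28 arrays, and 4167 and 4988 with 26. Genes of high signal leaned the other way with 26 arrays. Of those at or above the median signal, 1390 were higher and 1061 lower at both levels of estradiol (992 and 1135 with 28 arrays). Several lists are of high signal, with a median log2 signal of 14.95 for the cytosolic ribosome. With 28 arrays most lists made of hepatocyte transcripts had medians below 0, and hepatocyte markers themselves were lower in 19 of 19 genes, with a median difference of -0.50. In bulk tissue, fewer cells of a type and less RNA per cell cannot be told apart. The mean log2 signal of the hepatocyte markers ran from 10.05, on E2P4T replicate 5, to 16.07 with progesterone and from 15.60 to 16.20 without. Their median for E2P4T minus E2T was -0.77 with 28 arrays and -0.02 with 26, and for P4T minus CO it was -0.20 and -0.29. With 26 arrays the range with progesterone was 15.59 to 16.07, and the marker median was -0.14, or 0.02 after quantile normalization.

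The list of steroid and progesterone catabolism was not confined to enzymes that act on progesterone. It had a median of -0.28 with 28 arrays (18 of 20 genes lower) and 0.06 with 26 (13 of 20 higher). In either set 0 members had an unadjusted p under 0.05 in limma. Here HSD17B14 and HSD17B11, dehydrogenases of the steroid 17 position, had log2 differences of -0.36 (SE 0.24) and -0.28 (SE 0.24) with 28 arrays and -0.30 (SE 0.23) and -0.06 (SE 0.14) with 26. Targets of the xenobiotic receptors PXR and CAR had medians of -0.15 (12 of 17 lower) and 0.10 (14 of 17 higher). Their member CD36, a fatty acid transporter, had 0.24 (SE 0.17) and 0.32 (SE 0.17), and POR, the electron donor of the cytochromes P450, had -0.28 (SE 0.26) and 0.04 (SE 0.18).

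Glucocorticoid receptor targets had medians of -0.05 and 0.05 over 23 genes. ANGPTL4, a secreted inhibitor of lipoprotein lipase, was named because it had the lowest p of these 23 genes with 28 arrays. It read 8.26, 9.37 and 10.14 without progesterone and 4.87, 8.65 and 9.58 with it. It lay below the median without progesterone on 12 of 14 arrays. ANGPTL4 had a log2 difference of -1.02 (SE 0.34, unadjusted p = 0.005 in limma) with 28 arrays. With 26 arrays, which leave out the value of 4.87, it was -0.59 (SE 0.21, unadjusted p = 0.0086 in limma), and -0.59 at both levels of estradiol (-1.15 and -0.89 with 28 arrays). The metallothionein MT1A had -1.13 (SE 0.61) and -0.67 (SE 0.50), with signals between 5.02 and 15.07.

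In energy and lipid metabolism the medians were within 0.17 of 0 in either set of arrays. Gluconeogenesis and glycolysis had 0.04 and 0.07 over 26 genes. Its pyruvate carboxylase, PC, had a log2 difference of -0.24 (SE 0.18) and -0.31 (SE 0.16), the latter made of -0.65 for P4T minus CO and 0.03 for E2P4T minus E2T. With 28 arrays these were -0.67 and 0.18, and the interaction had an adjusted p above the threshold in limma in either set. PKM, a pyruvate kinase, had 0.61 (SE 0.44) and 0.26 (SE 0.41).

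Fatty acid and triglyceride synthesis had medians of -0.09 and -0.06 over 22 genes, with the desaturase FADS2 at -0.92 (SE 0.60) and -0.22 (SE 0.23) and the acetate-activating ACSS2 at -0.34 (SE 0.25) and -0.33 (SE 0.26). Fatty acid oxidation and ketogenesis had -0.06 (6 of 17 higher) and 0.09 (15 of 17 higher). Its ketone body enzyme BDH1, at a low mean log2 signal of 4.03, had 1.21 (SE 0.68) and 0.58 (SE 0.53). The highest BDH1 signal with progesterone was 11.36 with 28 arrays and 7.23 with 26. The dehydrogenase ACADVL had -0.20 (SE 0.22) and 0.03 (SE 0.17). Cholesterol synthesis and uptake had -0.17 and -0.07 over 18 genes, with DHCR7 at -0.31 (SE 0.20) and -0.19 (SE 0.20) and MVK at -0.45 (SE 0.30) and -0.08 (SE 0.15). These pathways showed no member past an unadjusted p of 0.05 in either set of arrays.

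Bile acid synthesis and transport had a median of -0.22 with 28 arrays (12 of 12 lower) and 0.03 with 26 (10 of 12 higher). The basolateral bile acid transporter subunit SLC51A, at a low mean log2 signal of 5.22, was at -0.99 (SE 0.54) and -1.23 (SE 0.54, unadjusted p = 0.029 in limma). The second value was made of -2.43 for P4T minus CO and -0.03 for E2P4T minus E2T (-2.24 and 0.26 with 28 arrays). SLC27A5, which activates bile acids for conjugation, was at -0.31 (SE 0.29) and 0.00 (SE 0.20). The list of the urea cycle and amino acid catabolism did not include OAT. Its medians were -0.16 and 0.02 over 25 genes. ASS1, the argininosuccinate synthase, had -0.37 (SE 0.27) and -0.08 (SE 0.12), and the serine dehydratase SDS had -0.36 (SE 0.20) and -0.32 (SE 0.19).

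Genes of the growth hormone and IGF axis had medians of -0.20 and -0.08 over 18 genes. STAT5B, the transcription factor that carries the growth hormone signal, read 8.10, 8.67 and 10.49 without progesterone and 7.66, 8.38 and 9.27 with it. It was below the median without progesterone on 11 of 14 arrays. STAT5B had a log2 difference of -0.48 (SE 0.21, unadjusted p = 0.025 in limma) and -0.57 (SE 0.20, unadjusted p = 0.0089 in limma) with 26 arrays. IGFALS, which stabilises circulating IGF, had -0.56 (SE 0.43) and -0.08 (SE 0.22).

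Acute phase proteins had the lowest median of the 22 lists with 26 arrays. It was -0.51 with 28 arrays (17 of 17 lower) and -0.18 with 26 (15 of 17 lower), or -0.10 after quantile normalization of the 26. The value of -0.18 was made of -0.36 for P4T minus CO and 0.03 for E2P4T minus E2T, as medians over the list, which were -0.39 and -0.58 with 28 arrays. The fibrinogen chain FGG had -0.67 (SE 0.42) and -0.18 (SE 0.14). Complement and coagulation had -0.45 (29 of 30 lower) and 0.00 (16 of 30 higher), with C2 at -0.51 (SE 0.25) and -0.25 (SE 0.18) and C4A at -0.64 (SE 0.38) and -0.24 (SE 0.15).

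Interferon-stimulated genes had -0.19 and -0.14 (16 of 19 lower with 26 arrays), with -0.35 for P4T minus CO and 0.03 for E2P4T minus E2T on the 26 arrays, and -0.21 and 0.00 on the 28. XAF1 stood at -0.42 (SE 0.24) and -0.30 (SE 0.22) and the transcription factor IRF9 at -0.31 (SE 0.19) and -0.19 (SE 0.18). Antigen presentation had -0.12 and -0.02 over 13 genes, with the peptide transporter TAP1 at -0.31 (SE 0.19) and -0.23 (SE 0.18) and BOLA-DMA at 0.61 (SE 0.45) and 0.71 (SE 0.43). The markers of Kupffer cells and monocytes had medians of -0.22 and 0.15, and on the 26 arrays their mean log2 signal lay between 10.49 and 11.42 with progesterone and between 10.41 and 11.78 without. Lymphocyte markers had 0.02 and -0.02, with mean log2 signals of 7.87 to 8.66 with and 7.70 to 8.999 without. Their part in the immune lists was not tested.

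The unfolded protein response had medians of -0.15 and -0.06 over 20 genes. SDF2L1, a chaperone cofactor of the endoplasmic reticulum, read 8.17, 9.41 and 10.56 without progesterone and 8.17, 9.03 and 10.78 with it, the last on E2P4T replicate 5. The log2 difference was -0.48 (SE 0.25) with 28 arrays and -0.67 (SE 0.22, unadjusted p = 0.0045 in limma) with 26. CRELD2, another product of that response, had -0.39 (SE 0.21) and -0.22 (SE 0.19). Proteasome subunits had -0.09 and 0.04 over 26 genes, and PSMC5 beside PSMC1 had -0.21 (SE 0.13) and -0.17 (SE 0.13).

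Oxidative phosphorylation had medians of 0.04 with 28 arrays (39 of 59 higher) and 0.11 with 26 (49 of 59 higher), beside -0.02 over all genes. The value of 0.11 was 0.08 after quantile normalization, and it was -0.01 when CO replicate 3 and E2T replicate 3 were left out too. By level of estradiol it was 0.30 for P4T minus CO and -0.03 for E2P4T minus E2T, and with 28 arrays 0.06 and 0.02. ATP5PF, a subunit of the ATP synthase stalk, read 11.73, 12.73 and 13.59 without progesterone and 11.75, 13.16 and 13.42 with it, and lay above the median without on 12 of 14 arrays. The log2 difference was 0.30 (SE 0.17) and 0.39 (SE 0.14, unadjusted p = 0.0092 in limma) with 26 arrays. SDHA of complex II had -0.30 (SE 0.21) and -0.13 (SE 0.18). The cytosolic ribosome had -0.01 (24 of 53 higher) and 0.08 (45 of 53 higher), with RPS28 at 0.13 (SE 0.14) and 0.21 (SE 0.11) and RPSA at -0.17 (SE 0.18) and -0.07 (SE 0.13).

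Proliferation genes had medians of -0.04 and -0.15 over 24 genes, with -0.42 for P4T minus CO and 0.07 for E2P4T minus E2T on the 26 arrays, and -0.37 and 0.14 on the 28. The mitotic cyclin CCNB1, at a mean log2 signal of 4.86, read 3.62, 5.55 and 7.69 without progesterone and 1.63, 4.71 and 6.61 with it. Its log2 difference was -1.40 (SE 0.52) and -1.55 (SE 0.54, unadjusted p = 0.0069 in limma). BIRC5, an inhibitor of apoptosis expressed at mitosis, had 0.66 (SE 0.35) and 0.54 (SE 0.36), in the opposite direction. Immediate early genes had 0.02 and -0.03 over 20 genes, with FOSB at -0.69 (SE 0.43) and -0.69 (SE 0.43), its second probe set at 0.05 (SE 0.50) and -0.39 (SE 0.45), and IER2 at -0.19 (SE 0.18) and -0.20 (SE 0.19). Of the circadian clock only 7 of 19 listed genes were measured, with medians of 0.00 and 0.00, NFIL3 at -0.38 (SE 0.21) and -0.23 (SE 0.16), and PER2 at 0.25 (SE 0.21) and 0.26 (SE 0.19).

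**Figure D5:**
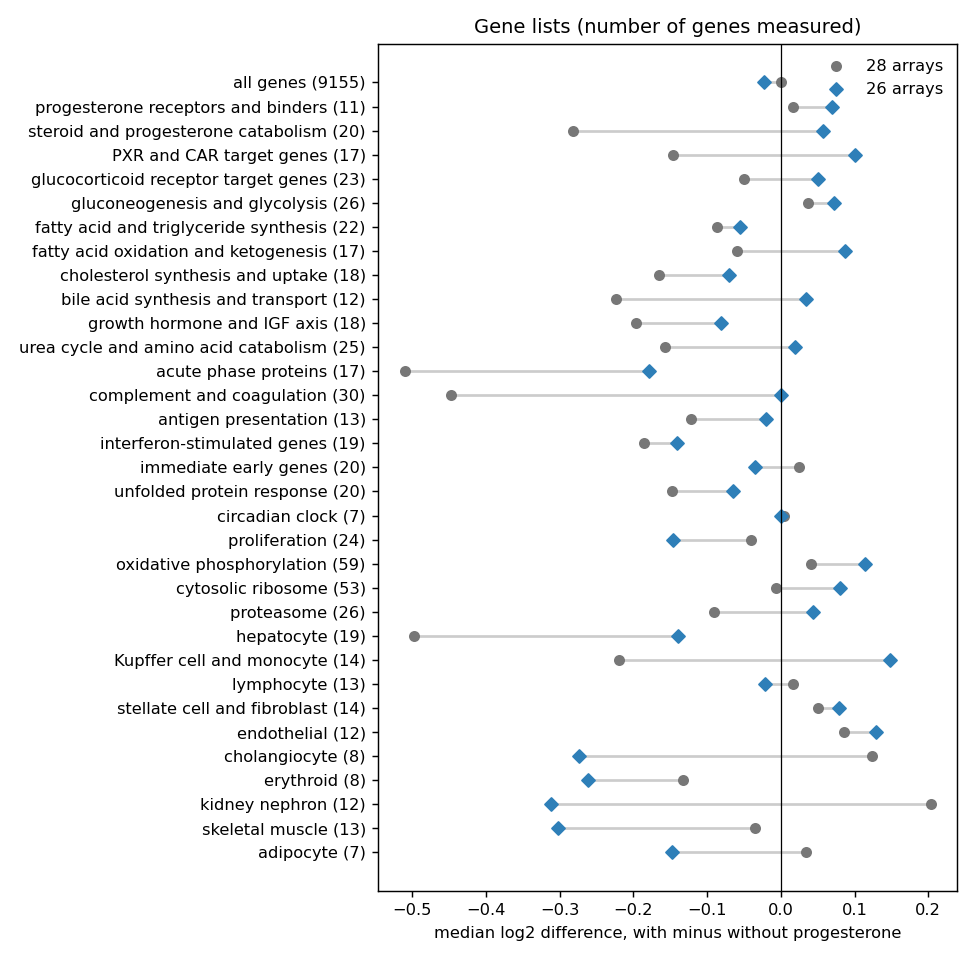
Median log2 difference, with minus without progesterone, of all 9155 genes, 22 pathway lists and 10 cell type marker lists (number of genes measured in brackets), for 28 arrays (grey circles) and 26 arrays (blue diamonds). The acute phase, complement and hepatocyte medians lie at -0.51, -0.45 and -0.50 with 28 arrays and at -0.18, 0.00 and -0.14 with 26.

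The precision of the arrays sets what could be seen. The median standard error of the progesterone difference was 0.177 with 28 and 0.153 with 26 arrays for genes at or above the median signal, and 0.386 and 0.356 for genes below it. A missed threshold therefore does not show that a transcript was the same with and without progesterone.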

How the data were processed

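The deposited values were MAS 5.0 signal intensities, made by the authors with GCOS 1.4 and MAS 5.0 at default settings and scaled so that array means agree (trimmed means 998 to 999.8); they were taken as log2. Of 24128 probe sets, 112 controls were left out. In the platform annotation 13292 probe sets had 1 symbol, 86 several and 10638 none, and genes were represented by the probe set of highest mean, giving 9155. Unnamed probe sets were tested but not named.

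The progesterone effect was fitted over all 24016 probe sets with limma 3.58.1 in R 4.3.3 (lmFit, eBayes with a variance trend, estradiol and progesterone as additive terms, Benjamini-Hochberg adjustment, threshold 0.05), and a 4-group fit gave the interaction and the difference at each estradiol level. No filter on low values was used. The study's mixed model with cow and period was not run, because the labels name neither. No 2 arrays were identical (highest correlation 0.982). The fit was run on simulated data with independent noise on each array. That simulation held no shared cow effect and no array-wide shift, so it checks the computation only.

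Genes were named by lowest p (10 in each direction, signal at or above the median gene, 9.37, and equal sign in both estradiol levels and with 26 arrays), as the 2 genes of lowest p in each list, and as all measured receptors and binders. List members CYP3A4 and CYP3A5 match 1 gene, CYP3A28, and CYP2C19 matches CYP2C89. The study set aside an array of P4T and an array of E2P4T for outlying signals, and whether they are the 2 left out here is not given in the sources used here. The comparison, the genes listed and the choice to leave out 2 arrays were made with earlier results of these data known. Alternatives were replicate number and array number as terms, other scalings, an offset, a filter, array weights and leaving out arrays. Array number limits the precision.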

Additional observations from a re-analysis of the deposited data

Results flagged for a closer look

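In groups of 7 arrays, 1 array can lie so far from the rest that the gap exceeds Dixon's 95% critical value, and about 1 group in 20 does so by chance. Of 164 groups checked (the 10 higher and 10 lower genes, the receptors and binders, and the marker lists), 35 did, 16 through E2P4T replicate 5 and 6 through P4T replicate 4.

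On E2P4T replicate 5 the marker means stood apart for hepatocytes (10.05), Kupffer cells and monocytes (7.65), cholangiocytes (10.86), kidney nephron (11.52) and adipocytes (8.36). Among the genes it stood apart for CCDC8 (11.64), GPN1 (11.13), PI4KB (11.73), PHF6 (11.26), TNC (4.43), QTRT1 (7.29), LBP (9.31), PGR (8.81), PGRMC1 (11.03), NENF (12.49) and PTGES3 (14.35). The log2 differences of TNC, QTRT1 and LBP were smaller without this array and P4T replicate 4, as given above, and that of PGR was larger. P4T replicate 4 stood apart for GPN1 (10.37), PGRMC1 (12.11), NR1I3 (10.19) and HSP90AA1 (11.92) and for the means of erythroid (7.47) and nephron (7.55) markers.

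The other 13 fell on arrays kept among the 26. E2T replicate 3 held 7 of them: TXNDC11 (11.57), PGRMC1 (12.67), NENF (10.43), SERBP1 (9.89), HSP90AA1 (12.98) and the means of Kupffer cell and monocyte (10.41) and skeletal muscle (7.76) markers. E2T replicate 2 stood apart for PALS1 (11.40) and for endothelial markers (8.15), and CO replicate 2 for Kupffer cell and monocyte markers (11.78). SERBP1 was low on E2P4T replicate 2 (9.83), NR1I3 on CO replicate 3 (4.67) and FKBP5 on CO replicate 1 (3.31).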

How the results depend on the processing

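The number of probe sets with an adjusted p under 0.05 was 0 under every alternative. At an unadjusted p under 0.05 the 248 higher and 251 lower became 73 and 73 with 1 probe set per symbol (9155 tested), 178 and 126 with the filter on low values (18013 tested), 301 and 675 with array weights, and 224 and 363 with median centring. The lower ones were 903 without P4T replicate 4 and E2P4T replicate 5. Alternatives chosen after seeing the data gave 444 higher and 510 lower with those 2 arrays left out and quantile normalization. With those 2 left out and the replicate block there were 352 higher and 1090 lower. Without CO replicate 3 and E2T replicate 3 as well as those 2 arrays there were 538 lower. Leaving out 1 array at a time gave 190 to 328 higher and 206 to 500 lower, with 500 lower without E2P4T replicate 5 and 397 without P4T replicate 4. The cause of these shifts was not tested. The replicate block gave 281 higher and 276 lower with 28 arrays. Same-numbered arrays of different groups deviated together at a median correlation of 0.143 with 28 arrays (above 0.1 in 22 of 42 pairs) and 0.293 with 26 (24 of 36), against -0.007 (87 of 252) and -0.0687 (67 of 217) for arrays of other numbers. Not every pair was above 0.1, which does not show that equal numbers come from different cows. The labels tie no number to a cow, so the main fit did not take the numbers as pairs. Whether equal numbers mark the same cow was not tested.

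The share of genes with the same sign at both estradiol levels, 45.97% with 28 arrays, was 51.32% without the 2 arrays (52.81% with quantile normalization as well), 48.4% with quantile normalization and 38.57% with median centring.

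Of the genes named, 13 changed direction somewhere. Without P4T replicate 4 and E2P4T replicate 5 the log2 differences were 0.0397 for POR, 0.0312 for ACADVL, 0.0023 for SLC27A5, 0.238 for PGRMC1, 0.0240 for SERBP1, -0.0477 for FKBP4, 0.0506 for PTGES3 and 0.0691 for HSP90AA1, and 0.0148 for NENF, which kept its direction. With quantile normalization as well they were 0.038 for HSD17B11, 0.0163 for POR, 0.00038 for ASS1, 0.0132 for FGG, 0.203 for PGRMC1, 0.0312 for SERBP1, -0.0802 for FKBP4, 0.0484 for PTGES3 and 0.0331 for HSP90AA1. With the replicate block and without both arrays they were 0.061 for POR, 0.0649 for ACADVL, 0.0699 for SLC27A5, 0.0093 for IGFALS, 0.208 for PGRMC1, 0.0637 for SERBP1, 0.0455 for PTGES3 and 0.10 for HSP90AA1. Array weights gave 0.134 for PGRMC1, -0.0681 for NENF, -0.0654 for FKBP4 and 0.0451 for PTGES3. Without CO replicate 3 and E2T replicate 3 as well they were 0.0188 for PGRMC1, -0.0967 for NENF, 0.0440 for PTGES3, -0.143 for SERBP1, 0.0020 for FKBP4, -0.0743 for HSP90AA1, -0.0968 for POR, -0.101 for ACADVL and -0.102 for SLC27A5, the last 6 in the direction of 28 arrays. Median centring gave -0.0295 for FKBP4, and quantile normalization of 28 arrays 0.0516 for PTGES3. The cause was not tested.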

Other observations

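With 26 arrays the 5 probe sets of lowest p over the whole array were all lower with progesterone and of low signal. They were chosen after their values were seen. Those of CACNA1A, NGFR and LYST are not the probe sets of highest mean for these genes, whose values are not given here. KCNJ15, an inward rectifier potassium channel, had a log2 difference of -2.12 (SE 0.41, adjusted p = 0.314 in limma) at a mean log2 signal of 5.58. CACNA1A, a calcium channel subunit, had -2.52 (SE 0.56), the neurotrophin receptor NGFR -2.36 (SE 0.52), the homeobox factor HOXA10 -2.22 (SE 0.52) and the lysosomal trafficking regulator LYST -2.42 (SE 0.58), at mean log2 signals of 3.94 to 5.40. With 28 arrays their values were -1.44, -1.91, -2.19, -1.51 and -2.05.

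Markers of cell types that liver holds in small numbers or not at all had medians below 0 with 26 arrays: -0.27 for 8 cholangiocyte genes, -0.26 for 8 erythroid genes, -0.31 for 12 nephron genes, -0.30 for 13 skeletal muscle genes and -0.15 for 7 adipocyte genes, beside -0.02 over all genes. With 28 arrays these medians were 0.12, -0.13, 0.20, -0.03 and 0.03, so that 3 of the 5 had the opposite sign. These 5 lists were of low signal, with median log2 signals of 5.56 to 6.43 against 9.37 over all genes. With 26 arrays 4.7% of all genes below the median signal were lower and 0.655% higher, at an unadjusted p under 0.05 in limma. Whether the medians follow signal level or cell type was not tested. The mean log2 signal of the nephron markers on the 26 arrays ran from 5.16 to 6.43 with progesterone and from 5.41 to 7.92 without. Markers of stellate cells and fibroblasts (0.05 with 28 and 0.08 with 26 arrays) and of endothelium (0.09 and 0.13) had medians above 0.

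Among list members with an unadjusted p under 0.05 in limma with 26 arrays that the text has not yet given, IGFBP2, an IGF binding protein, had a log2 difference of 0.56 (SE 0.26) and the urea cycle enzyme OTC 0.39 (SE 0.19). NDUFC2, a subunit of complex I, had 0.31 (SE 0.14), and the mitotic kinase PLK1 had -0.77 (SE 0.26). With 28 arrays these values were 0.29, 0.04, 0.23 and -0.53. The adjusted p was above the threshold for each.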
